A study of Rattus norvegicus with 2 samples.

Results

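The 9 genes described here encode structural proteins of the myelin sheath, namely Mbp, Mag, Mog, Cnp, Mobp, Cldn11, Mal, Opalin and Ermn. They were chosen by gene symbol, with no threshold on a measured value, and all 9 were among the 17202 genes in the deposited table. Their RNA was measured by bulk sequencing in primary oligodendrocyte precursor cells (OPCs) from the brain of wild-type rats, cultured in a medium that the labels call OGM. One library came from OPCs given amyloid-beta (Aβ) at 1 µM for 2 days and the other from OPCs given the solvent DMSO, so each group had 1 library. Estimated counts summed to 15117102 in the first and 15019416 in the second. The protocol text on treatment is the same for both samples and speaks of Aβ alone, and it is the sole source for the duration in DMSO. Donors are described once as adult and once as developing, the P1 in both titles is unexplained, and no label says how the cells were isolated or pooled. The comparison bears on whether Aβ alters the differentiation of these cells, the topic named in the series title.

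Oligodendrocytes wrap axons in a compacted spiral of membrane, and OPCs are their dividing precursors. As an OPC leaves the cell cycle and matures, it switches on genes of the sheath in sequence, with Cnp and Mbp among the earlier ones and Mog, Mobp and Opalin among those of mature cells. The transcription factors Sox10 and Myrf act on many of these genes, and loss of myelin gene expression is a common readout of blocked differentiation.

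In these cultures Cnp was abundant, Mbp, Mog and Cldn11 were at low to middle levels, and Mag, Opalin, Ermn, Mal and Mobp were near the limit of detection. Of the 9 genes, 6 were measured, with at least 1 CPM (the count scaled to library size) in either library. Mobp, Mal and Ermn were below that level. None of the 6 measured genes was as far as 1.2-fold apart between Aβ and DMSO with a counting interval that left out a ratio of 1. Among all 13510 measured genes 4.81% were, so finding none among 6 says little about whether these genes changed. The summed level of the 9 genes was 572.88 TPM (the authors' transcript level per length and library size) with Aβ and 536.38 TPM with DMSO. Without Cnp the sum of the other 8 genes was 48.83 TPM and 49.41 TPM. Values in TPM ran higher with Aβ in general, with a median log2 ratio over all measured genes of 0.038, against -0.00071 on counts scaled to library size. With 1 library per group there is no replicate, no difference has a replicate check, and the intervals below (95%) cover counting error only.

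The upstream sequence of 3 members is shown because they have a single RefSeq transcript, and so 1 known start, and because they span the range of levels: Cnp the highest of the 9, Cldn11 in the middle and Mal almost undetected. Each is the 250 bases before the transcript start, written 5′ to 3′ on the gene's strand, from RefSeq in the build GRCr8. The deposited values were made on another build, Rnor_6.0, and none of its coordinates is used. The Cnp window is chr10:86011254-86011503 on the plus strand, that of Cldn11 chr2:114149540-114149789 on the minus strand and that of Mal chr3:135341424-135341673 on the minus strand. Capitals mark CTGGCAC or CTGGTAC, forms of the word bound by MYRF, and ACAAAG or ACAATG, forms of the word bound by SOX proteins, on either strand.
Cnp: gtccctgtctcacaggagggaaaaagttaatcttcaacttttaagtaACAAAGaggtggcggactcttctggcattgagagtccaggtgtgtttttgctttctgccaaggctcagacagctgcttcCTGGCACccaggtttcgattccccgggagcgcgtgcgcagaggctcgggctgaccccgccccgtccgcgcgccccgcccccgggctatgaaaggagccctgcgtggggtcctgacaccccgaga
Cldn11: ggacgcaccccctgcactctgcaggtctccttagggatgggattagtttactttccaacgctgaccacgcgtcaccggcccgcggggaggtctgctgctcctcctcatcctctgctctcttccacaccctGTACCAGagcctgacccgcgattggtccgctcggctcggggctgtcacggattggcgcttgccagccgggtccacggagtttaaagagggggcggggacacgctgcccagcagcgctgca
Mal: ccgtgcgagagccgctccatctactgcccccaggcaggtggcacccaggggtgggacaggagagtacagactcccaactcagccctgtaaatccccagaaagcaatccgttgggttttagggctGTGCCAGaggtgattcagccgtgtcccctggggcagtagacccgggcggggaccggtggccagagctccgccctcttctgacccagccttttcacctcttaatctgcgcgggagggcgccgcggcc

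All 3 sequences held 1 form of the MYRF word at nearly the same distance from the start. In Cnp, CTGGCAC lay from base 124 to base 118 before the start. In Cldn11, CTGGTAC on the opposite strand lay from base 120 to base 114, and in Mal, CTGGCAC on the opposite strand lay from base 126 to base 120. RefSeq windows were matched for 7 of the 9 members, all but Mog and Ermn, and a MYRF word stood in the windows of 5 of them, Cnp, Cldn11, Mal, Mag and Opalin. Of all 33469 windows of the same length, from 27457 genes, 5.48% held one. This share and that for the SOX word are per window, while the members are counted per gene. A SOX word stood in the windows of Cnp (1 copy), Mag (1 copy), Opalin (3 copies) and Mobp (8 copies) and in 1 of 2 windows of Mbp (3 copies), against 25.3% of all windows. The windows of Cnp, Cldn11 and Mal were rich in G and C, at 60.4%, 64.8% and 64.8%, against a median of 51.2% over all windows, while that of Mobp had 41.6%. The words are matches of letters and not measured binding. Where the MYRF word falls in other windows was not examined, so the distances in the 3 sequences have no background beside them. No MYRF word was found in the windows of Mbp and Mobp. These genes have 15 RefSeq transcripts each but 2 windows and 1 window, so any other starts were not searched.

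Cnp encodes a cyclic nucleotide phosphodiesterase of the cytoplasmic channels of myelin, which is already made in precursors. It stood at 524.05 TPM with Aβ and 486.97 TPM with DMSO, above 98.6% and 98.4% of the genes in the table. From 11030 and 10437 estimated counts, its ratio of Aβ over DMSO was 1.05 (interval 1.02 to 1.08) on counts scaled to library size. It was the only 1 of the 6 measured members (at least 1 CPM, the count scaled to library size, in 1 library) whose interval left out 1. Over all 13510 measured genes, 13.4% had such an interval, and the share was 43.4% among the 424 genes with mean counts from 5000 to 20000, the range in which Cnp lies. Cnp alone held 91.5% of the summed TPM of the 9 genes with Aβ and 90.8% with DMSO.

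**Figure D1:**
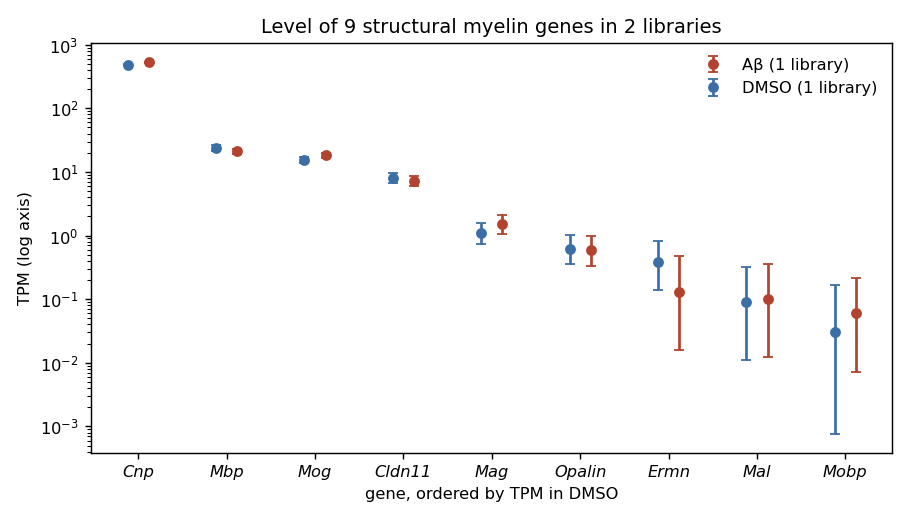
TPM (log axis) of each gene in the Aβ library (red) and the DMSO library (blue), 1 library each; bars are exact 95% Poisson intervals of the count and cover counting error only. Cnp lies at 524.05 TPM and 486.97 TPM, and the 3 genes at the right rest on 1 to 6 counts each.

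Mbp and Mobp encode small basic proteins of compact myelin, where Mbp holds the cytoplasmic faces of the membrane together. Mbp was listed at 20.92 TPM with Aβ and 23.64 TPM with DMSO, from 367 and 404 counts. Its ratio was 0.901 (0.780 to 1.04), so the interval includes 1 and its lower bound is a reduction to 0.780. Mobp, a gene of mature sheaths, had 2 counts with Aβ and 1 with DMSO, or 0.06 TPM and 0.03 TPM. Both are at or under the floor of 3 counts, so no ratio is given for Mobp.

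Mag and Mog belong to the immunoglobulin superfamily, Mag on the inner membrane facing the axon and Mog on the outermost surface of the sheath. Mog stood at 18.25 TPM with Aβ and 15.55 TPM with DMSO, from 423 and 368 counts, with a ratio of 1.14 (0.989 to 1.31). Mag stood at 1.5 TPM and 1.10 TPM, from 37 and 27 counts, with a ratio of 1.36 (0.806 to 2.32). Both intervals include 1. Neither Mog nor Mbp was 1.2-fold apart, and among the 5656 genes with mean counts from 200 to 1000, to which both belong, 4.40% were. Mag was the only measured member at least 1.2-fold apart whatever its interval. At 10 to 50 mean counts, 57.9% of the 1488 measured genes were that far apart, and 13.1% of all measured genes were.

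Cldn11 and Mal encode membrane proteins with multiple spans, Cldn11 a claudin of the tight junctions between the layers of the sheath and Mal a proteolipid of membrane sorting. Cldn11 was at 7.27 TPM with Aβ and 8 TPM with DMSO, from 118 and 132 counts. Its ratio was 0.887 (0.686 to 1.15). Of the 1409 genes with mean counts from 100 to 200, 21.4% lay at least 1.2-fold apart, which Cldn11 did not. Mal had 2 counts in each library, at 0.10 TPM and 0.09 TPM, and no ratio is given because both are under the floor.

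Opalin is a surface glycoprotein of mature oligodendrocytes, and Ermn (ermin, also called juxtanodin) is an actin-binding protein of the sheath's cytoplasm. Opalin stood at 0.60 TPM with Aβ and 0.62 TPM with DMSO, from 15 and 16 counts, with a ratio of 0.930 (0.428 to 2.01). It passed the filter of 1 CPM through the DMSO library alone, at 1.07 CPM against 0.991 CPM. Ermn had 2 counts with Aβ and 6 with DMSO, or 0.13 TPM and 0.38 TPM, and its ratio of 0.331 had an interval from 0.0326 to 1.85. Mobp, Mal and Ermn together had 6 counts and 9 counts (ratio 0.661, 0.194 to 2.08), so a difference in these genes was not detectable at this depth unless it was large.

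The order of the 9 genes by TPM was the same in both libraries: Cnp, Mbp, Mog, Cldn11, Mag, Opalin, Ermn, Mal and Mobp. Cnp was 25.1 times Mbp with Aβ and 20.6 times with DMSO, and its counting interval lay clear of that of Mbp in each library. Mbp and Mog overlapped in the Aβ library and not in the DMSO library, Mag and Opalin overlapped with DMSO and not with Aβ, and the neighbours from Opalin down to Mobp overlapped in both. Mog against Cldn11 and Cldn11 against Mag were clear of each other in both libraries. No other gene is named for a pattern like that of a member, since 2 libraries give 1 ratio per gene.

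**Figure D2:**
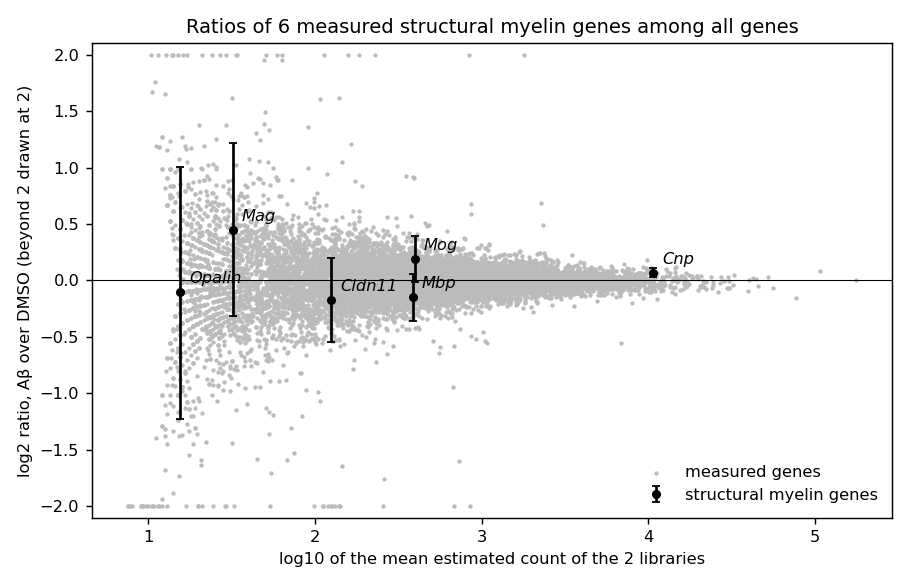
Log2 ratio of Aβ over DMSO (vertical axis) against the log10 mean count (horizontal axis) for the 13510 measured genes (grey) and the 6 measured structural myelin genes (black, with 95% counting intervals). The intervals narrow from Opalin (0.428 to 2.01 as a ratio) to Cnp (1.02 to 1.08), and all but that of Cnp cross 0.

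Of the 6 measured members, 3 had a ratio above 1 (Mag, Mog and Cnp) and 3 below (Mbp, Cldn11 and Opalin), beside 49.7% above 1 among all measured genes. Their median log2 ratio, with 0.5 CPM added to each value, was -0.0013, beside -0.00071 over all 13510 measured genes. Opalin enters these values through the DMSO library alone. With the 5 members that had 1 CPM in both libraries, an alternative chosen after seeing the data, 3 lay above 1 and 2 below and the median was that of Cnp, 0.068. At 1.2-fold with an interval that left out 1 the members counted 0, against 4.81% of all measured genes. For 4 members, Mbp, Mog, Cnp and Cldn11, the whole interval stayed within 1.5-fold. For Mag and Opalin the counts were too few to bound the ratio that closely. The 8 members without Cnp summed to 966 and 956 counts, a ratio of 1.00 (0.916 to 1.10).

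Mbp and Mog stood on different sides of 1. In TPM, Mbp was 1.52 times Mog with DMSO and 1.15 times with Aβ. On counts, the ratio for Mbp divided by that for Mog was 0.790 (0.645 to 0.969). Among the 15 pairs that the 6 measured members form, the interval left out 1 for this pair and for Mbp against Cnp (0.860, 0.742 to 0.995), with no correction for the number of pairs. Both pairs hold Mbp. The share of such pairs among other genes was not computed, so nothing particular to these members is read from them. Of the summed TPM of the 8 genes other than Cnp, Mbp held 42.8% with Aβ and 47.8% with DMSO, Mog 37.4% and 31.5%, Cldn11 14.9% and 16.2%, and Mag 3.07% and 2.23%.

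**Figure D3:**
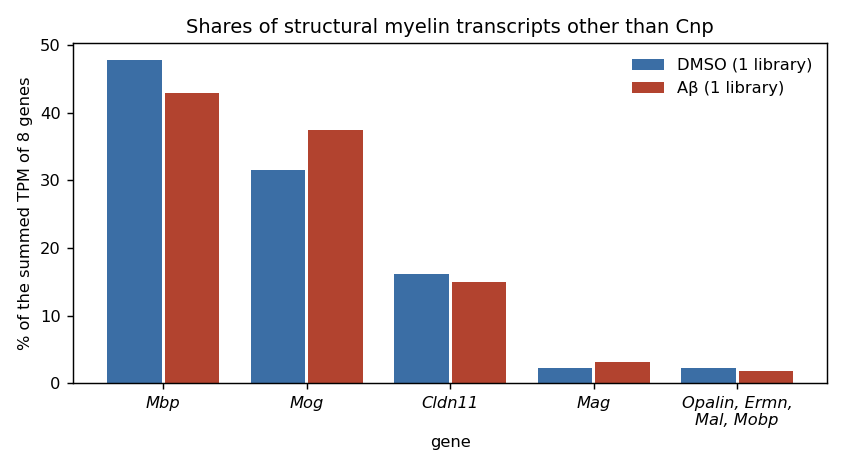
Share of the summed TPM of the 8 genes other than Cnp (vertical axis, percent) held by each gene in the DMSO library (blue) and the Aβ library (red), 1 library each, with no error drawn. Mbp holds the largest share in both, at 47.8% with DMSO and 42.8% with Aβ, and the last bars sum 4 genes.

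A second readout of Mbp was the transcript length implied by its count and its FPKM (fragments per kilobase, scaled like CPM to the library). Mbp has 15 RefSeq transcripts, which include the short classic forms and the longer golli forms that start far upstream. The implied length for Mbp was 1654 bases with Aβ and 1577 bases with DMSO, a difference of 4.89%. It was 0.296% for Cnp, 0.028% for Mog and 0.288% for Cldn11, and the median over the 10887 genes with at least 100 counts in both libraries was 0.288%. A difference at least as large as that of Mbp in either direction was found for 3.66% of those genes. The ratio of Mbp was 0.885 in TPM and 0.901 on counts, while that of Cnp was 1.08 in TPM and 1.05 on counts. Ratios in TPM ran higher for genes in general, with a median log2 ratio over all measured genes of 0.038 in TPM and -0.00071 on counts. No source used here says how the authors set lengths, and the mix of Mbp transcripts was not tested.

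**Figure D4:**
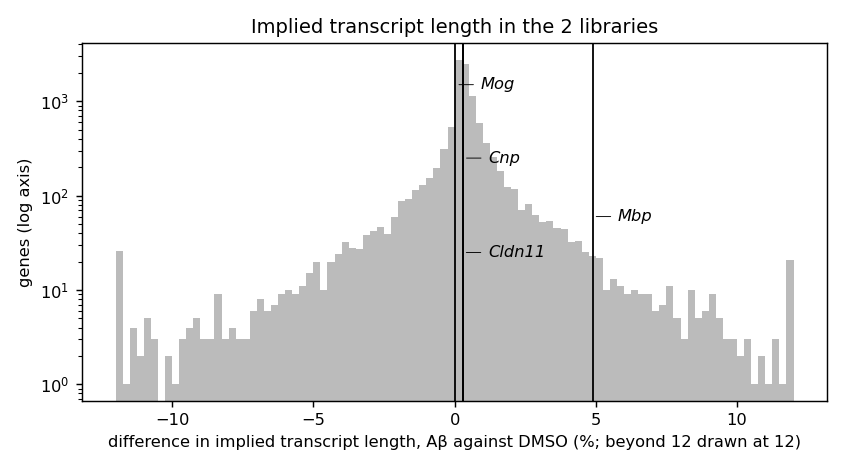
Difference in implied transcript length of Aβ against DMSO (horizontal axis, percent) for the 10887 genes with at least 100 counts in each library (vertical axis, number of genes, log scale), with 4 structural myelin genes as lines. Mbp lies at 4.89%, and Cnp, Mog and Cldn11 lie within 0.3 of 0.

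Other genes of the sheath and of mature oligodendrocytes were listed with more ratios below 1 than above. Of the 27 measured genes analysed here, 20 lay below and 7 above, and the log2 ratios had a median of -0.071, or of -0.029 in TPM, beside 0.038 for all measured genes in TPM. Intervals lay wholly above 1 for 1 gene and below 1 for 5, beside 6.48% and 6.90% of all measured genes. The 5 were Pmp22, Cd81, Gsn, Gpr37 and Pmp2, and Pmp22 and Pmp2 are also among the Schwann cell markers below. Such intervals are more frequent among abundant genes. Cd81, at 0.930 from 10102 and 10771 counts, lies in the range where 43.4% of genes had one. The largest ratios in size were those of Gpr37, a receptor of maturing oligodendrocytes, at 0.445 (0.212 to 0.883) from 13 and 29 counts, which passed the filter through the DMSO library alone (0.859 CPM against 1.93 CPM), Aspa, which cleaves N-acetylaspartate, at 0.661 (0.432 to 1.00), Pmp2, a fatty acid binding protein of myelin, at 0.730 (0.598 to 0.889), and Apod, a lipid carrier, at 0.866 (0.575 to 1.30). In the Pmp2 data 178 counts with Aβ stood against 242 with DMSO.

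Enzymes that make myelin lipids had 8 of 19 ratios above 1 and 11 below, and their median log2 ratio was -0.014. Intervals lay wholly above 1 for 2 of them and below 1 for 2, beside 6.48% and 6.90%. Fa2h, which hydroxylates the fatty acids of myelin lipids, was at 1.22 (0.945 to 1.58), Gal3st1, which makes sulfatide, at 0.873 (0.740 to 1.03), Degs1, a ceramide desaturase, at 0.903 (0.829 to 0.983) and Fdft1, squalene synthase, at 0.910 (0.861 to 0.963).

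Among regulators of myelin gene transcription and RNA transport, Sox10 and Olig2 were below Cnp and above every other member, while Myrf lay between Cldn11 and Mog. Sox10 stood at 117.45 TPM with Aβ and 114.90 TPM with DMSO (ratio 0.995, 0.946 to 1.05), and Olig2, a factor of the whole lineage, at 215.77 TPM and 208.71 TPM (1.01, 0.969 to 1.05). Myrf stood at 13.47 TPM and 14.33 TPM (0.932, 0.841 to 1.03). Of 25 measured regulators 15 stood above 1 and 10 below. The median of the log2 ratios was 0.023, and intervals lay wholly above 1 for 5 and below 1 for 1, beside 6.48% and 6.90% of all measured genes. Qk, an RNA-binding protein that stabilises myelin transcripts, was at 1.22 (1.11 to 1.34) with fractional counts, which can arise where reads are divided between genes. Tcf7l2, a factor of newly forming oligodendrocytes, was at 0.858 (0.769 to 0.958), Tmem98, a binding partner of Myrf, at 1.13 (1.01 to 1.27) and Zfp536 at 0.891 (0.660 to 1.2).

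Genes of committed precursors had 10 of 16 ratios above 1 and 6 below. The lists share genes and are not independent. Fyn and Tcf7l2 are also among the regulators, Nfasc, whose interval lay above 1, among the other sheath genes, and Gpr17 among the OPC markers. The median of their log2 ratios was 0.059. Intervals lay wholly above 1 for 6 and below 1 for 1 (Tcf7l2), beside the same 6.48% and 6.90%. Such intervals are more frequent among abundant genes, as the 43.4% given for the range of Cnp shows, and this bears on the counts of the other lists too. Gpr17, a receptor that marks committed precursors, was at 1.17 (1.10 to 1.25), Rras2 at 1.17 (1.01 to 1.37) and Neu4, a sialidase, at 0.825 (0.652 to 1.04) with fractional counts.

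**Figure D5:**
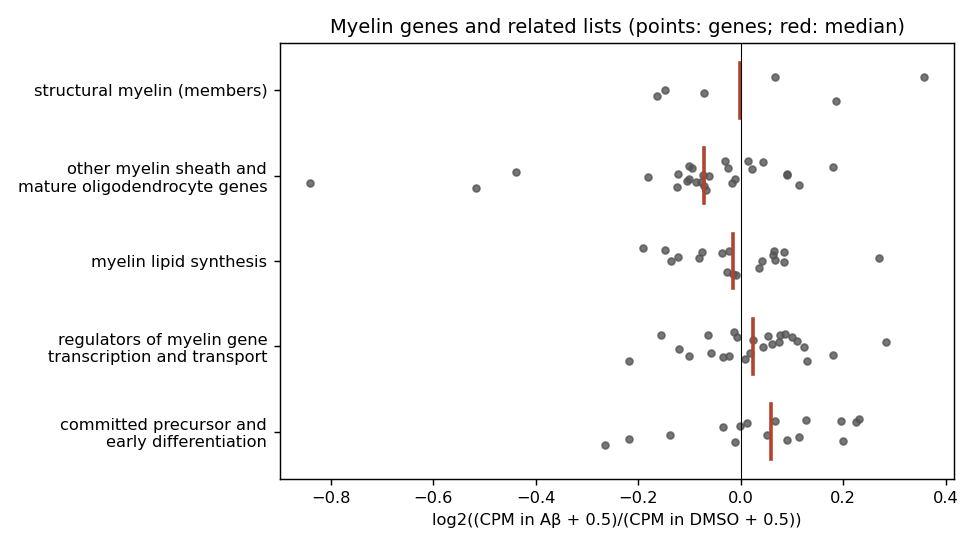
Log2 ratio with 0.5 CPM added (horizontal axis) of each measured gene (points, spread vertically at random within a row) for the 6 measured structural myelin genes and 4 related lists, with the median of each list in red. The medians run from -0.071 (other sheath genes) to 0.059 (committed precursors), and the furthest point is Gpr37, which passed the filter through the DMSO library alone. Fyn, Tcf7l2 and Nfasc are drawn repeatedly, as members of different lists.

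Markers of OPCs and of other cell types were both listed, and some of the latter, such as Slc1a3, S100b, Map2 and Tubb3, can also be made by the OPC lineage. The 15 OPC markers in the table summed to 2430 TPM with Aβ and 2333 TPM with DMSO with none at 0, among them Pdgfra at 227.88 TPM and 205.61 TPM. Astrocyte markers (12) summed to 2343 TPM and 2225 TPM and neuron markers (12) to 865 TPM and 832 TPM, with none at 0 in either list. The astrocyte markers ran from Gfap, above Pdgfra at 838.5 TPM with Aβ and 792.69 TPM with DMSO, down to Gjb6 at 0.06 TPM and 0.07 TPM. Between these lay Gja1 at 82.76 TPM and 82.22 TPM, Aqp4 at 76.23 TPM and 76.09 TPM and Slc1a2 at 11.07 TPM and 9.48 TPM. The neuron markers ran from Tubb3 at 371.53 TPM and 352.83 TPM down to Nefl at 1.99 TPM and 1.74 TPM, with Stmn2 at 211.99 TPM and 208.43 TPM and Gad1 at 24.51 TPM and 25.21 TPM between them. The 12 microglial markers summed to 55.7 TPM and 59.2 TPM. Schwann cells, which make peripheral myelin and share Mbp, Sox10 and Pmp22 with oligodendrocytes, had 9 markers analysed here, which summed to 282.8 TPM and 294.42 TPM with those shared genes included. Markers of fibroblasts and pericytes summed to 26.6 TPM and 22.8 TPM. Of these sums Cspg4, which is also among the OPC markers, held 14.38 TPM and 13.18 TPM. Lum and Rgs5 were at 0 in the Aβ library and had only 2 counts and 1 count in the DMSO library. Markers of endothelium summed to 2.45 TPM and 2.12 TPM, and those of ependyma to 11.3 TPM and 11.9 TPM. Whether other cells were present, and their part in the levels of the 9 genes, was not tested, and in bulk RNA fewer cells of a type and less RNA per cell cannot be told apart.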

How the data were processed

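RNA was sequenced from 2 OPC cultures, 1 with Aβ and 1 with DMSO, grouped by the treatment in the labels. Libraries were made with a BGI mRNA kit, per the labels' protocols, and the submitters' processing notes name Bowtie2 and Rnor_6.0. No source used here names the quantifier, the annotation or the use of strand. The authors deposited estimated counts (expected counts), which are whole for all 9 members and fractional in at least 1 library for 2298 genes. The authors' TPM and FPKM values, per the file headers, are per kilobase and scaled to library size. The authors' normalized signal column equalled the count, rounded up, times 1 constant per library for 100% of values above 0 (relative tolerance 1e-06), and was not analysed further.

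CPM used TMM effective library sizes from rounded counts (edgeR 4.0.16, R 4.3.3). A gene was measured at 1 CPM or more in either library. Ratios carry exact 95% Clopper-Pearson intervals, conditional on the summed counts, and TPM levels exact Poisson intervals. Ratios between pairs of members carry exact conditional odds-ratio intervals (scipy 1.17.1). The ratio and interval code was tested on counts simulated with Poisson error alone around the mean levels of these 2 libraries. That test does not bear on variation between cultures. No significance test was run between the libraries. With 1 library per group, calls used a fold of 1.2 with an interval leaving out 1, and a floor of 3 counts. Implied length was the count divided by FPKM and by the library total. The text names all members, up to 4 measured genes of each related list (those furthest from 0 in log2 ratio), and Pdgfra, Olig2, Sox10 and Myrf from a fixed panel. Other genes of the lists are named where lists share them or where the counted intervals are described. Of the cell type lists, summed TPM is given, with the highest and lowest marker of the astrocyte and neuron lists and some markers between them. The members and lists were chosen with earlier results of these data known. Some genes of these lists and of the panel are not reported here and were left out of the lists' counts. Alternatives were other scalings (including DESeq2 1.42.0), TPM, FPKM, pseudocounts and filters, of which the filter of 1 CPM in both libraries was chosen after seeing the data.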

Additional observations from a re-analysis of the deposited data

How the results depend on the processing

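The median log2 ratio of the structural myelin genes ranged from -0.014 (pseudocount 0.1 CPM) to 0.068 (filter of 10 CPM, with 3 genes left, and filter of 1 CPM in both libraries, with 5 left) over the 11 alternatives. In all 11 it lay between the median of the members' lower counting bounds and that of their upper bounds. These bounds are wide and the alternatives reuse the same counts, so this is no independent check. With TPM it was 0.040, beside 0.037 for all genes. The count of members at least 1.2-fold apart with an interval that left out 1 was 0 in all 11. Single member ratios under other scalings, TPM or FPKM stayed within their counting intervals in 28 of 28 cases. Ermn, below the filter of 1 CPM, is among these cases. The scalings differ little and start from the same counts, so that outcome was close to fixed in advance. Shares of the summed level moved beyond counting error in 7 of 36 cases, all with counts not divided by length, where Cnp in DMSO held 91.6% in place of 90.8%. No paired analysis was possible because each group held 1 library, and for the same reason no library could be left out. Depth limits Mag, Opalin, Ermn, Mal and Mobp, which had at most 37 counts in a library.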
